A study of Mus musculus with 171 samples.

Results

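Epiblast (EPI) cells of wild-type mouse blastocysts were set against primitive endoderm (PrE) cells of the same embryos, across all genes, by single-cell RNA sequencing. The cells were chosen by their labels: of 171 cells in the series, 29 are labelled wild type and E3.75, of which 19 are EPI and 10 are PrE. Embryo 1 gave 4 EPI and 3 PrE cells, embryo 2 gave 8 and 6, and embryo 3 gave 7 and 1. Both groups carry the genotype Stat3 +/+ and no treatment is named. No source used here gives the strain, the litter or the way in which a cell was assigned to a lineage. The titles carry the letter C for embryos 1 and 2 and A for embryo 3, with no meaning stated. If the assignment used expression, the lineage markers below are not independent of it. By title these cells are of stage E3.75, but their source label reads E3.5; the stage in the title is used here. The series was made to study Stat3-null (MUT, Stat3 -/-) embryos, and its 9 EPI and 14 PrE cells of 4 MUT embryos at E3.75 serve below only as separate embryos.

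In the late mouse blastocyst the inner cell mass separates into the EPI, which forms the fetus, and the PrE, which forms the endoderm of the yolk sac. NANOG-expressing cells secrete the ligand FGF4, and cells that respond to it through FGF receptors and ERK keep GATA6 and go on to express SOX17, GATA4 and SOX7 in sequence. PrE cells then become an epithelium that lays down a basement membrane and takes up proteins by endocytosis.

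Counts were summed over the cells of each embryo and lineage, so the embryo is the unit, with 3 EPI and 3 PrE sums. A cell held 8037109 to 14767390 counts in EPI and 7528770 to 13033834 in PrE. The median number of genes detected per cell averaged 11651 ± 133 in EPI and 11232 ± 349 in PrE (SD, n = 3 embryos; exact two-sided sign-flip permutation test, p = 0.5, where 3 pairs cannot go below 0.25). Mitochondrial mRNA took 4.03 ± 0.498% of counts in EPI and 4.52 ± 0.103% in PrE (p = 0.5 by the same exact test). The PrE sum of embryo 3 is a single cell, so it has no spread within the embryo.

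One library went against its label. Over 8 markers each of EPI, PrE and trophectoderm, the outer layer that forms the placenta, all 19 EPI cells and 9 of the 10 PrE cells scored highest for their own label. PrE-labelled cell 7 of embryo 1 had a trophectoderm score of 8.06, the mean of log2(CPM + 1) over the list, against 2.83 for PrE and 2.39 for EPI. It held 5848 CPM of the keratin Krt8 and 3514 of Krt18, and 99.4 of the trophectoderm regulator Cdx2, whereas Gata4, Sox17 and Pdgfra stood at 0.934, 0.934 and 1.31 CPM. In the other 9 PrE cells the trophectoderm score ran from 1.01 to 3.96, and in EPI cells from 1.25 to 3.395. Counts of each gene list are therefore given with and without cell 7.

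**Figure D1:**
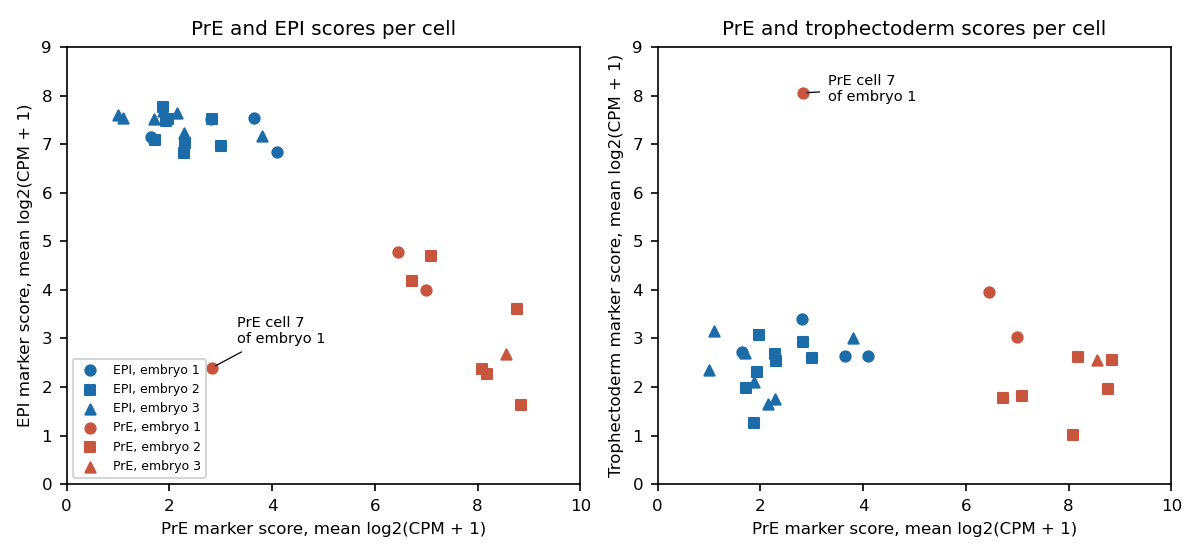
Marker scores of each wild-type cell, as the mean of log2(CPM + 1) over 8 markers per list; the left panel sets the EPI score and the right panel the trophectoderm score against the PrE score, EPI cells in blue and PrE cells in red, with a symbol per embryo. PrE cell 7 of embryo 1 lies apart from the other 9 PrE cells, at 8.06 on the trophectoderm axis and 2.83 on the PrE axis.

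Across the genome, 12733 genes had enough counts to be tested. The paired edgeR quasi-likelihood test, with the embryo as block, called 0 of them (0%) at a Benjamini-Hochberg adjusted p of 0.05, and the smallest adjusted p was 0.170. An unadjusted p under 0.05 was found for 1069 genes (8.4%). DESeq2 on the same sums called 629 genes higher in EPI (5.25% of the 11992 with an adjusted p) and 452 higher in PrE (3.77%), and limma-trend called 0. As a description, every EPI sum lay above every PrE sum for 1409 genes (11.1%), and every EPI sum lay below every PrE sum for 939 (7.37%). Without cell 7 the counts were 1384 (10.9%) and 867 (6.86%) of 12643 genes. The shares 11.1% and 7.37% are the background for the counts of each gene group below, and a group near them does not stand apart. The median log2 fold change of all tested genes, EPI over PrE, was 0.24. Their median log2 ratio was 0, 0 and 0.33 in embryos 1, 2 and 3, the background for list medians per embryo. All gene levels below are CPM, counts scaled to library size and by edgeR's TMM factors (levels of single cells are scaled to the cell's own total), and are listed for embryos 1, 2 and 3 in that order. Since no gene passed the main test, folds below are estimates with an SE and no gene is said to have risen or fallen.

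EPI factors stood higher in EPI. Nanog (ENSMUSG00000012396, chromosome 6, 122707489 to 122714633; mm10), the homeobox factor that marks the EPI, had 1126, 1140.0 and 999 CPM in EPI and 146, 27.5 and 3.38 in PrE. The EPI sums lay close together and the PrE sums were spread over more than an order of magnitude, with no overlap between lineages. The log2 fold change was 5.43 (SE 1.28), with an unadjusted p of 0.0114 and an edgeR adjusted p of 0.505. Sox2, the partner of OCT4 in the pluripotency network, had 37.6, 36.7 and 37.3 CPM in EPI and 7.31, 3.77 and 0.169 in PrE. Prdm14, a repressor that protects naive pluripotency, had 133, 97.03 and 119 CPM in EPI and 1.01, 0.586 and 0.169 in PrE, which is next to nothing in all 3 PrE sums. By contrast Pou5f1, which encodes OCT4, overlapped between the lineages, at 987, 718 and 796 CPM in EPI and 857, 784 and 532 in PrE. Its log2 fold change was 0.22 (SE 0.18).

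In the list of naive and EPI factors, 14 of 30 tested genes had every EPI sum above every PrE sum and 2 the reverse (13 and 2 without cell 7), against 11.1% and 7.37% of all genes. The list median was 1.47. The 2 genes with higher PrE sums were the Krüppel-like factor Klf5, at 108, 103 and 100.5 CPM in EPI and 306, 314 and 219 in PrE, and the zinc finger factor Sall4, at 335, 299 and 303 in EPI and 549.9, 561 and 449 in PrE. Zfp42, also known as Rex1, had 636, 956 and 798 CPM in EPI and 187, 128 and 73.6 in PrE. Tdgf1, the NODAL co-receptor, had 1683, 1290.4 and 1129 CPM in EPI and 1122, 276 and 51.1 in PrE. Its PrE sums differed more than 10-fold among embryos, and the PrE sum of embryo 1 was 1628 CPM without cell 7, within the range of the EPI sums. Formative factors, which come up as the EPI matures, gave 2 and 2 of 10 tested genes apart (2 and 2 without cell 7). They were Otx2 and Foxd3 with higher EPI sums, and Dnmt3a and Dnmt3b with higher PrE sums. Otx2 had 4.16, 15.98 and 56.98 CPM in EPI and 0.0348, 0.132 and 0.338 in PrE, with the lowest EPI value in embryo 1.

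Fgf4 and Fgfr2, a ligand and a receptor of the FGF pathway, had log2 fold changes of opposite sign, but the sums of Fgfr2 overlapped. Fgf4 (ENSMUSG00000050917, chromosome 7, 144847367 to 144865243; mm10) had 114, 176 and 134 CPM in EPI and 0.835, 0.938 and 0.338 in PrE. All 19 EPI cells, 25.9 to 261 CPM each, lay above all 10 PrE cells, 0.33 to 1.21 CPM. The log2 fold change was 7.68 (SE 0.52), and the edgeR adjusted p was 0.17. With the spread shared with the MUT embryos the adjusted p was 0.00516, and over its 14 alternatives it ran 8.78e-44 to 0.966. Fgfr2, the receptor that is typical of PrE precursors, had 0.607, 2.07 and 0.461 CPM in EPI and 170.3, 116 and 1.52 in PrE. The PrE sums of embryos 1 and 2 were far above EPI, and the single PrE cell of embryo 3 was within the range of the EPI sums. Of the 11 tested FGF ligands, receptors and adaptors, 1 was apart with higher EPI sums, which was Fgf4, and 1 with higher PrE sums, which was Fgfr4 (1 and 2 without cell 7). As labelled, these counts lay near the shares of all genes, 11.1% and 7.37%. The list median was -0.83.

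Genes that commonly respond to ERK did not share a direction. Of 19 tested, 3 had higher and 3 lower EPI sums without overlap (3 and 3 without cell 7), with a median of 0.01. Dusp4, a phosphatase that limits ERK, had 0.652, 9.04 and 5.03 CPM in EPI and 167, 177 and 501 in PrE. Etv5, an ETS factor downstream of FGF, lay the other way, at 298, 425 and 441 CPM in EPI and 67.99, 49.5 and 10.7 in PrE. Myc had 437, 171 and 263 CPM in EPI and 59.05, 38.9 and 15.5 in PrE. Egr1, an immediate early gene, had 284, 338 and 462 CPM in EPI and 1029, 502 and 1113 in PrE, close together in embryo 2 and further apart in the other two.

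PrE transcription factors formed the list with the lowest median. Of 10 tested genes, 0 had higher and 7 lower EPI sums without overlap (0 and 7 without cell 7), with a median log2 fold change of -5.37. Sox17 (ENSMUSG00000025902, chromosome 1, 4490931 to 4497354; mm10), an early PrE regulator, had 11.96, 8.84 and 11.3 CPM in EPI and 339.6, 535 and 552 in PrE. Without cell 7 its PrE sum of embryo 1 was 501, close to the other two. The log2 fold change was -5.45 (SE 0.33), with the smallest unadjusted p of all genes (4.76e-05) and an edgeR adjusted p of 0.17. Over its 14 alternatives the adjusted p ran 2.26e-84 to 0.966. Gata4 had 4.27, 1.51 and 6.69 CPM in EPI and 191, 299 and 508 in PrE. Gata6, the first of these factors to act, had 31.98, 5.72 and 8.82 CPM in EPI and 127, 119.8 and 66.5 in PrE. Its gap was narrower than that of Gata4. Of the 4 EPI cells of embryo 1, cells 1 and 2 held 23.4 and 109 CPM of Gata6, and cells 5 and 8 held 2.35 and 0.265. Foxq1, a forkhead factor, had 0.405, 0.425 and 0.822 CPM in EPI and 38.1, 124 and 96.97 in PrE.

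The receptor gene Pdgfra, a widely used PrE marker, had 58.6, 1.33 and 3.55 CPM in EPI and 264, 314 and 366 in PrE, and EPI of embryo 1 again stood above the EPI of the other embryos. Among the 4 tested PDGF genes it was the 1 with EPI sums below PrE sums, and 0 had them above, with a list median of -0.14. Without cell 7 the ligand gene Pdgfa was apart with higher EPI sums, so the counts were 1 and 1, and its log2 fold change was 1.57 (SE 0.34), against 1.19 with the cell. Sox7 had 0.405, 0.793 and 0.66 CPM in EPI and 11.7, 272 and 775 in PrE, and the endocytic adaptor Dab2 had 1.96, 3.27 and 3.14 in EPI and 6.19, 336 and 265 in PrE. For both, PrE of embryo 1 lay far below PrE of embryos 2 and 3, also without cell 7, at 16.6 for Sox7 and 8.79 for Dab2.

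**Figure D2:**
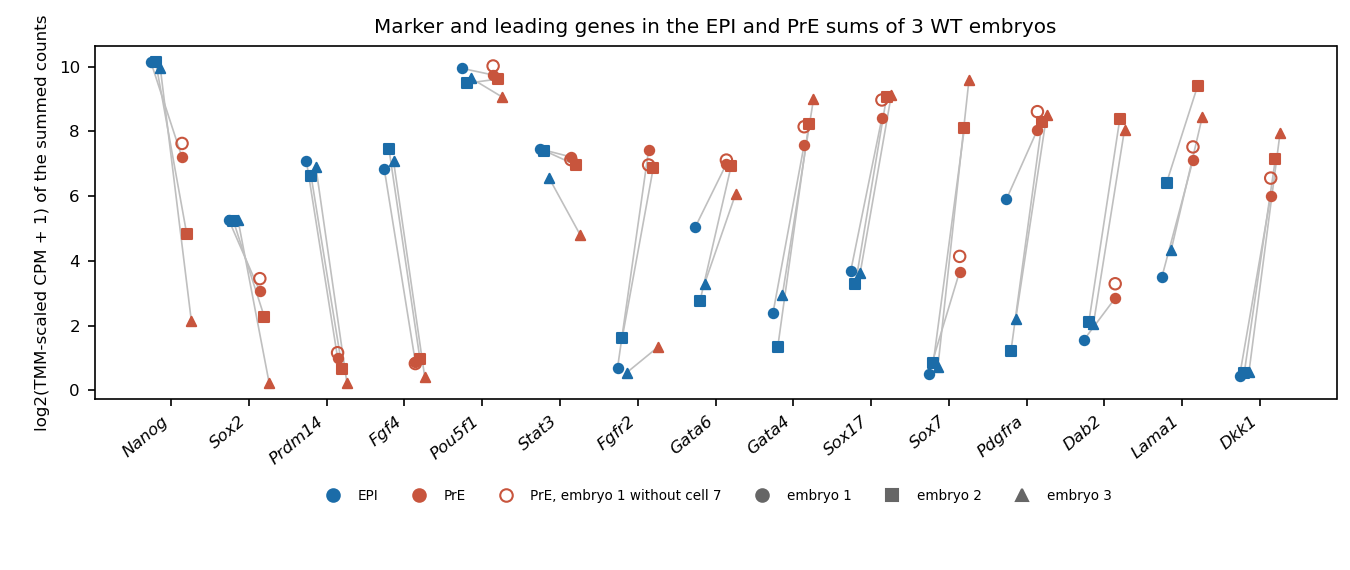
Marker and leading genes in the summed counts of each wild-type embryo, as log2(TMM-scaled CPM + 1); EPI sums are blue and on the left of each pair, PrE sums red and on the right, lines join the sums of an embryo, and open circles are PrE of embryo 1 without cell 7. Fgf4, Prdm14, Sox17 and Gata4 separate the lineages in all 3 embryos, whereas Sox7 and Dab2 are low in PrE of embryo 1 and Fgfr2 is low in PrE of embryo 3.

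Basement membrane genes stood lower in EPI. Of 22 tested genes for laminins, collagen IV and collagen processing, 15 had every EPI sum below every PrE sum and 2 above (14 and 1 without cell 7). The list median was -2.12. Lama1, the laminin α1 chain, had 10.3, 84.02 and 19.2 CPM in EPI and 137, 677 and 349 in PrE, with a log2 fold change of -3.64 (SE 0.32). Lamc1, the laminin γ1 chain, had 33.8, 38.8 and 33.2 CPM in EPI and 161, 341 and 494 in PrE. Col4a1 of collagen IV had 97.9, 12.3 and 33.8 CPM in EPI and 188, 553 and 959 in PrE. Serpinh1, the collagen chaperone HSP47, had 2.90, 0.536 and 0.872 CPM in EPI and 15.7, 173 and 202 in PrE, lowest among PrE in embryo 1. The 2 genes on the other side were Fn1, which encodes fibronectin, at 432, 682 and 588 CPM in EPI and 126, 160.4 and 77.1 in PrE, and Nid1, a nidogen that links laminin to collagen IV, at 356, 212 and 271 in EPI and 161, 95.7 and 95.9 in PrE. For Nid1 the PrE sum of embryo 1 without cell 7 was 220.2, which overlaps EPI.

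All 27 tested genes of the endoplasmic reticulum and secretory pathway had a negative log2 fold change, against 40.1% of all tested genes. For 10 of them every EPI sum lay below every PrE sum (8 without cell 7), none lay above, and the median was -1.21. Hsp90b1, the chaperone GRP94, had 147, 274 and 338 CPM in EPI and 461, 1098 and 1472 in PrE. P4hb, a disulfide isomerase and prolyl hydroxylase subunit, had 303, 317 and 379 CPM in EPI and 588, 1364 and 1531 in PrE, and 365 in PrE of embryo 1 without cell 7, which overlaps EPI. Hspa5, the chaperone BiP, had 226, 311 and 553 CPM in EPI and 362, 1800.2 and 2636 in PrE, and its sums overlapped. In embryo 1 the median log2 ratio of the list was -0.42, against -1.66 in embryo 2 and -1.52 in embryo 3.

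Endocytic and transport genes of the endoderm gave 1 higher and 7 lower of 15 without overlap (1 and 7 without cell 7), with a median of -1.51. Cubn, the receptor cubilin, had 15.3, 1.12 and 0.511 CPM in EPI and 51.7, 319.5 and 179 in PrE. Amn, its partner amnionless, had 0.135, 0.447 and 3.05 CPM in EPI and 1.04, 132 and 146 in PrE, where embryo 1 overlapped with EPI. Lrpap1, a chaperone of such receptors, had 338, 179.7 and 349 CPM in EPI and 529, 858 and 1070.5 in PrE. Glipr2, a Golgi-associated protein gene, had 20.04, 12.2 and 17.2 CPM in EPI and 88.2, 903 and 1086 in PrE, apart by a wide margin in every embryo. Ctsl, a lysosomal protease, had 482, 586 and 654 CPM in EPI and 1058, 4975 and 1749 in PrE. Of 24 listed genes, 15 passed the filter on low counts; products of mature visceral endoderm such as Afp, Ttr and Apob did not.

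Sterol synthesis genes had 0 higher and 10 lower EPI sums of 25 without overlap (0 and 10 without cell 7). A negative log2 fold change was found for 23 of 25, against 40.1% of all tested genes. The median was -1.06, and -0.61 without embryo 1. In embryo 1 the median log2 ratio of the list was -2.24, against -0.75 in embryo 2 and -0.33 in embryo 3. Insig1, which restrains the sterol-sensing machinery, had 66.1, 34.9 and 49.6 CPM in EPI and 374, 122 and 143 in PrE. Srebf2, the transcription factor that drives the pathway, had 50.9, 46.7 and 57.9 CPM in EPI and 189, 105 and 152 in PrE. Hmgcs1, an early enzyme, had 27.8, 28.8 and 47.02 CPM in EPI and 482, 88.1 and 51.8 in PrE (314 in embryo 1 without cell 7).

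**Figure D3:**
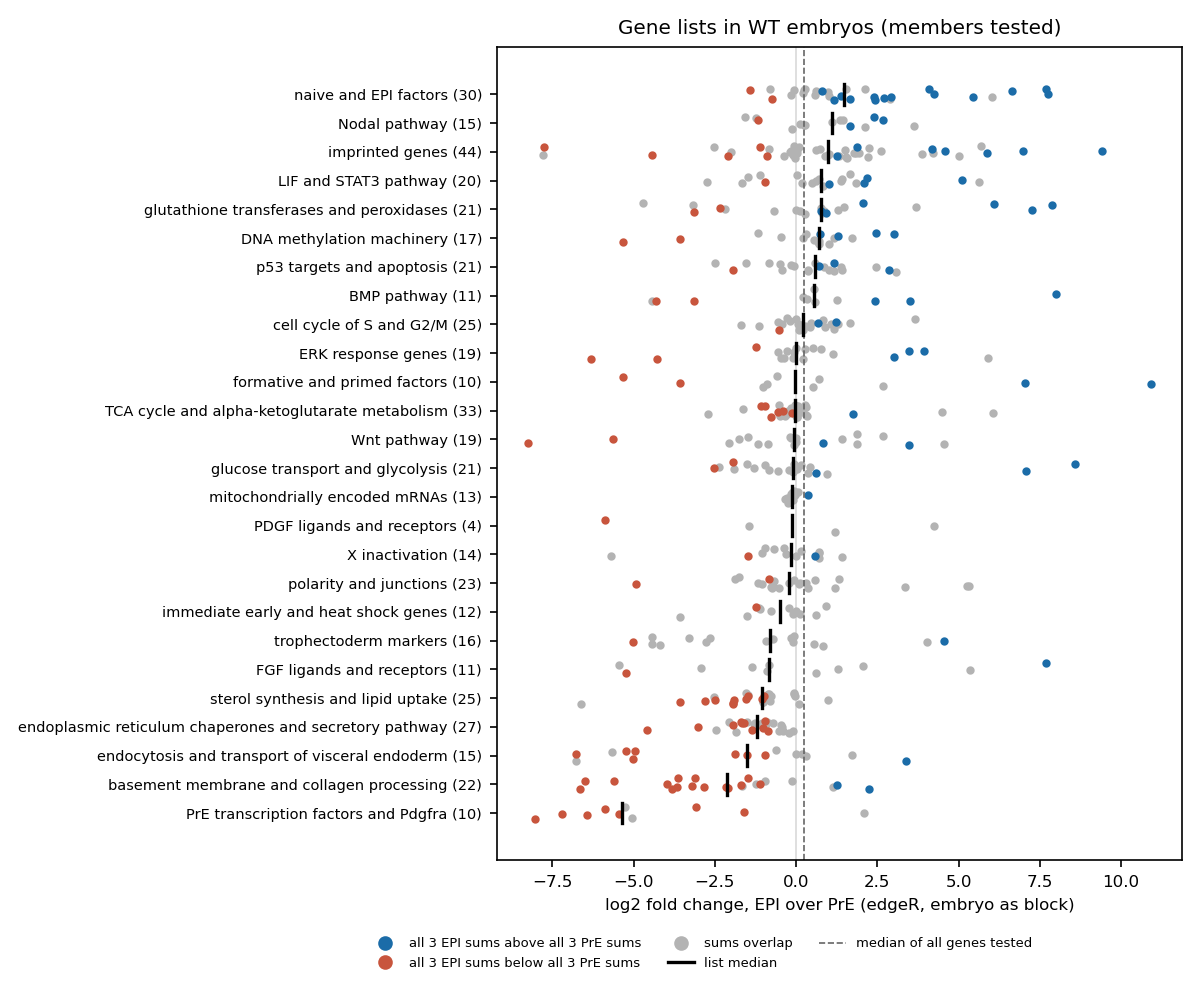
Log2 fold changes, EPI over PrE, of the tested members of 26 gene lists in 3 wild-type embryos; each dot is a gene, blue where every EPI sum lay above every PrE sum, red where every EPI sum lay below, grey where the sums overlapped, with the list median as a black bar and the median of all tested genes (0.24) dashed. PrE transcription factors lie lowest, with a median of -5.37, and naive and EPI factors highest, with 1.47.

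Genes of DNA methylation lay on both sides: 4 of 17 with higher and 2 with lower EPI sums without overlap (3 and 2 without cell 7), and a median of 0.71. The de novo methyltransferase Dnmt3b had 35.5, 64.9 and 198 CPM in EPI and 284, 1094 and 2421 in PrE. In each embryo PrE stood several times above EPI, and the level in both lineages was lowest in embryo 1 and highest in embryo 3. Dnmt3a had 3.46, 6.13 and 13.6 CPM in EPI and 30.97, 303 and 1748 in PrE. On the other side stood Zfp57, a zinc finger protein that keeps imprints methylated, at 287, 152 and 231 CPM in EPI and 21.1, 22.7 and 38.6 in PrE. Tet1, which oxidises methylcytosine, had 767, 377 and 463 CPM in EPI and 344, 181 and 143 in PrE, and 444 in PrE of embryo 1 without cell 7, which overlaps EPI. Uhrf1, the partner of maintenance methylation, had 656, 736 and 516 CPM in EPI and 389, 456 and 293 in PrE.

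Imprinted genes, named in the series title, gave 7 with higher and 5 with lower EPI sums of 44 tested (8 and 5 without cell 7), of 90 listed, and a median of 0.997. The embryos differed here, with a list median log2 ratio of 0 in embryo 1, 0.11 in embryo 2 and 1.04 in embryo 3, where PrE is a single cell. Over all tested genes these medians were 0, 0 and 0.33. Cobl, an actin nucleator, had 19.8, 138 and 203 CPM in EPI and 0.557, 0.836 and 0.592 in PrE. Snrpn, a splicing protein gene expressed from the paternal copy, had 128, 98.2 and 90.97 CPM in EPI and 53.5, 22.8 and 19.1 in PrE. Impact, likewise paternal, had 118, 228 and 109.9 CPM in EPI and 48.7, 104 and 41.5 in PrE. Igf2, the growth factor, had 0.247, 3.02 and 0.0125 CPM in EPI and 123, 18.5 and 19.4 in PrE, and the PrE sum of embryo 1 was 6.17 without cell 7. Counts do not tell the parental copies apart.

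The lists of the TCA cycle, of glycolysis and of the mitochondrial genome had medians near 0. TCA cycle genes gave 1 higher and 6 lower of 33 (1 and 5 without cell 7), with a median of -0.05. Glud1, which makes α-ketoglutarate from glutamate, had 401, 216 and 275 CPM in EPI and 813, 427 and 658 in PrE. Suclg1, a subunit of succinyl-CoA ligase, had 369, 310.1 and 278 CPM in EPI and 862, 405 and 680.5 in PrE. For both genes every EPI sum lay below every PrE sum. Glucose transport and glycolysis gave 3 higher and 2 lower of 21 (3 and 1 without cell 7). Within it, Pfkl, the liver type of phosphofructokinase, had 34.4, 125 and 70.2 CPM in EPI and 199.7, 689.8 and 424 in PrE, with a log2 fold change of -2.53 (SE 0.17) and an edgeR adjusted p of 0.17. Without cell 7 the PrE sum of embryo 1 was 158, still above the EPI sums. Pfkfb3, which makes an activator of phosphofructokinase, had 12.6, 7.42 and 9.81 CPM in EPI and 0.0696, 0.0147 and 0 in PrE. The 13 mRNAs of the mitochondrial genome had a median of -0.11, 1 with higher and 0 with lower EPI sums (1 and 0 without cell 7); mt-Nd1 and mt-Co1 had log2 fold changes of -0.21 and -0.29. Glutathione enzymes gave 6 higher and 2 lower of 21 (8 and 2 without cell 7), with a median of 0.76, against 0.24 for all tested genes. Mgst3, a microsomal transferase, had 26.02, 23.1 and 30.2 CPM in EPI and 226, 213 and 261 in PrE, but only 63.4 in PrE of embryo 1 without cell 7. Gpx1, a glutathione peroxidase, had 1029.5, 1292 and 1371 CPM in EPI and 777, 696 and 699 in PrE.

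Other signalling pathways had genes on both sides. Nodal genes gave 3 higher and 1 lower of 15 (2 and 1 without cell 7), with Gdf3, an EPI ligand of the TGFβ family, at 209.7, 181 and 373 CPM in EPI and 50.6, 53.7 and 170.1 in PrE. Smad2, which carries the NODAL signal, lay the other way, at 34.7, 25.96 and 44.7 CPM in EPI and 59.9, 72.4 and 105 in PrE. BMP genes gave 3 higher and 2 lower of 11 (3 and 2 without cell 7), with a pair of target genes on opposite sides. Id1 had 20.7, 15.9 and 1.42 CPM in EPI and 106, 109 and 28.2 in PrE, whereas Id3 had 599, 429 and 483 in EPI and 228, 96.5 and 33.8 in PrE. Wnt genes gave 2 higher and 2 lower of 19 (2 and 2 without cell 7). Dkk1 (ENSMUSG00000024868, chromosome 19, 30545863 to 30549665; mm10), a secreted Wnt inhibitor, had 0.36, 0.458 and 0.474 CPM in EPI and 63.3, 141 and 245 in PrE, a log2 fold change of -8.25 (SE 0.55) and an edgeR adjusted p of 0.17, which ran 2.69e-67 to 0.966 over its 14 alternatives. Single PrE cells without cell 7 held 0.281 to 377 CPM of it, so its PrE level rests on some of the cells. Wnt6, a ligand, had 2.52, 2.65 and 0.0748 CPM in EPI and 83.9, 41.2 and 25.6 in PrE (15.2 in embryo 1 without cell 7).

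LIF and STAT3 pathway genes, the subject of the series, gave 4 higher and 1 lower EPI sums of 20 (3 and 1 without cell 7), with a median of 0.77. Stat3 itself overlapped, at 175, 168 and 93.3 CPM in EPI and 147, 124 and 26.9 in PrE, with a log2 fold change of 0.82 (SE 0.40). It was higher in EPI in each embryo, and lowest in both lineages in embryo 3. Icam1, an adhesion molecule, had 40.3, 117 and 57.9 CPM in EPI and 7.24, 2.39 and 0.423 in PrE. Sgk1, a kinase induced by many signals, had 473, 504 and 514 CPM in EPI and 137, 218 and 41.6 in PrE. The LIF receptor gene Lifr had 138, 103 and 102 CPM in EPI and 49.8, 84 and 125 in PrE, and the gene of the shared subunit gp130, Il6st, had 82.3, 36.1 and 51.4 in EPI and 38.03, 90.7 and 0.169 in PrE; both overlapped.

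For the other groups the counts are given as a description only, beside shares of 11.1% and 7.37% over all genes. The p53 and cell death list gave 3 and 1 of 21 tested apart with higher and with lower EPI sums (2 and 0 without cell 7), and the cell cycle list 2 and 1 of 25 (2 and 0 without cell 7). Immediate early and heat shock genes gave 0 and 1 of 12 (1 and 1 without cell 7), and X inactivation genes 1 and 1 of 14 (1 and 1 without cell 7). Polarity and junction genes gave 0 and 2 of 23, and 3 and 2 without cell 7, so that genes with higher EPI sums were found there only without that cell. Trophectoderm markers gave 1 and 1 of 16 (2 and 1 without cell 7), with a median of -0.81 as labelled and 0.01 without cell 7. The members with the smallest p in these lists had log2 fold changes of 0.71 for the cell death gene Bax, 1.16 for Trp53, which encodes p53, -0.53 and 0.68 for the replication helicase genes Mcm4 and Mcm7 (without cell 7 the sums of Mcm4 overlapped, at -0.32 (SE 0.18)) and -1.12 for the early gene Junb. The values were -1.04 for the polarity kinase gene Prkci, -4.93 for the junction gene Amot, -1.46 and 0.71 for the X-linked ubiquitin ligase genes Rlim and Huwe1, and -2.76 for the fatty acid binding protein gene Fabp3 (-1.98 (SE 0.49) without cell 7). Krt8 had 159, 59.5 and 40.96 CPM in EPI and 2571, 84.9 and 376 in PrE, and 579.7 in PrE of embryo 1 without that cell.

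Further leading genes were taken as the 12 with the smallest unadjusted p in each direction among genes whose sums did not overlap, a choice made after the values were seen. Higher in EPI stood Kdm5b, a demethylase of histone H3 lysine 4, at 368, 417 and 531 CPM in EPI and 85, 62.8 and 61.8 in PrE. Pou2f3, a POU factor, had 40.5, 36.3 and 71.7 CPM in EPI and 0.278, 0.191 and 0.169 in PrE. Ifitm2, an interferon-induced membrane protein gene, had 211, 311 and 532 CPM in EPI and 30.5, 58.6 and 38.6 in PrE. Jam2, an adhesion molecule, had 238, 313 and 479 CPM in EPI and 73.2, 68.97 and 62.5 in PrE. Usp9x, an X-linked deubiquitinase, had 242, 319 and 239 CPM in EPI and 40.99, 59.6 and 82.9 in PrE. Higher in PrE stood Rhpn1, at 0.337, 2.48 and 3.41 CPM in EPI and 15.2, 135 and 244 in PrE. Srgn, the proteoglycan serglycin, had 0.765, 7.19 and 3.402 CPM in EPI and 26.9, 378 and 321 in PrE. For Rhpn1 and Srgn the PrE sum of embryo 1 was the lowest of the 3, and the gap to EPI was largest in embryos 2 and 3. Rpp25, Ei24 and Fam25c completed the genes not described elsewhere, with log2 fold changes of 1.96, 2.80 and -1.48.

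A stricter description asks for every cell, not every sum, to be apart. Every EPI cell lay above every PrE cell for 10 of 12733 genes (0.0785%): Nanog, Prdm14, Fgf4, Zfp42, Klf2, Morc1, Kdm5b, Usp9x, Pou2f3 and Gsta3. Every PrE cell lay above every EPI cell for 11 genes (0.0864%), among them Elf3, Rab11a, Sdc4, Phlda1, Aldh18a1, Lamc1, Efna4, Col4a2, Tpm4 and Snx2. Leaving out cell 7 gave 15 genes (0.118%) with EPI above and 30 (0.236%) with PrE above, and the PrE genes then included Gata4, Sox17 and Pdgfra. Sdc4, the heparan sulfate proteoglycan syndecan 4, ran from 15.9 to 286 CPM with a median of 78.3 in EPI cells and from 563 to 2337 CPM with a median of 1582 in PrE cells. Snx2, a sorting nexin of the endosome, ran from 88.5 to 534 CPM with a median of 223 in EPI cells and from 898 to 2189 CPM with a median of 1163 in PrE cells. Morc1, a germ-line ATPase gene, ran from 84.5 to 348 CPM with a median of 215 in EPI cells and from 0.578 to 18.3 CPM with a median of 1.59 in PrE cells. Gata6, although the earliest PrE factor, did not separate the cells, with 0 to 109 CPM in EPI cells and 64.9 to 192 in PrE cells.

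Upstream sequences are shown for 4 genes that lead the lists above, to let the motifs of lineage regulators be read beside the levels. Each is the 250 bases before the first listed start in RefSeq's table for GRCm38.p6, the assembly of mm10, 5′ to 3′ on the gene's strand. Capitals mark ACAAT, the core bound by SOX factors, on either strand. AGATAA, bound by GATA factors, and ATGCAAAT, bound by OCT factors, were also searched on both strands, and the 3 motifs were counted separately where they overlap. Nanog and Zfp57 each hold 1 SOX core here, and Fgf4 and Dkk1 hold none of the 3 motifs. Only exact matches were counted, so a site that differs from these letters by a base was not. The Fgf4 and Dkk1 windows overlap the gene spans given above, which come from GENCODE.
Nanog, chr6:122707239-122707488, plus strand: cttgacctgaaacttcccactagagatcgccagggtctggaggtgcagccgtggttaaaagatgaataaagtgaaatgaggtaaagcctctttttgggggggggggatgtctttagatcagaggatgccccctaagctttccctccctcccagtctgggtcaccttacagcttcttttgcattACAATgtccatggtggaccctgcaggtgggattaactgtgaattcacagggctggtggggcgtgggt
Fgf4, chr7:144861136-144861385, plus strand: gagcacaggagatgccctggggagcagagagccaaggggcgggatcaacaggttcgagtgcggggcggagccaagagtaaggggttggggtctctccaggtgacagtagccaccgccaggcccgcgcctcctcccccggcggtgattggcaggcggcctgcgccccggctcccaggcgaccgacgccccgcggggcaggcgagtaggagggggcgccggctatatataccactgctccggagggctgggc
Zfp57, chr17:37003416-37003665, plus strand: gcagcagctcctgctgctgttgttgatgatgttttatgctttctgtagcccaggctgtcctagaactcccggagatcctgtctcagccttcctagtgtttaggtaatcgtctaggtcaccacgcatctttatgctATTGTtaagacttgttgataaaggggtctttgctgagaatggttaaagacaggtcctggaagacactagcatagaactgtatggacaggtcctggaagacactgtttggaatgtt
Dkk1, chr19:30549497-30549746, minus strand: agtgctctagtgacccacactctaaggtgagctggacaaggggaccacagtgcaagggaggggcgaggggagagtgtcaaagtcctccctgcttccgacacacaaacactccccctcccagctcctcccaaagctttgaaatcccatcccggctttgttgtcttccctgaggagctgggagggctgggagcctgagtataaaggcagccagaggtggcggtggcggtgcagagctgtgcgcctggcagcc

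Over windows of 250 bases before to 50 after the start, the SOX core was found in 22.2% of 1013 promoters of genes with higher EPI sums, 16.3% of 687 promoters of genes with lower EPI sums and 19.95% of 8942 promoters of all tested genes. The GATA motif was found in 5.92%, 4.95% and 6.06%, and the OCT motif in 2.07%, 1.02% and 1.36%. The shares for the lineage groups lay within a few percentage points of the share for all genes, and a match is only a description of the letters.

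Xist, the RNA that coats the inactive X chromosome (ENSMUSG00000086503, chromosome X, 103460366 to 103483254; mm10), differed by embryo more than by lineage. It had 296, 74.2 and 0.199 CPM in EPI and 506, 420.4 and 0 in PrE, with a log2 fold change of -1.06 (SE 0.88) and an edgeR adjusted p of 0.851. Embryos 1 and 2 held Xist and no Y-linked reads at the median, and embryo 3 held Y-linked reads. In embryo 2 the 8 EPI cells ran from 0.814 to 302 CPM with a median of 30.2, and the 6 PrE cells from 88.5 to 1612 with a median of 312. In embryo 1 the 4 EPI cells ran from 178 to 405 with a median of 285, and the 3 PrE cells from 151 to 747 with a median of 474. The value of 747 was that of cell 7, whose markers went against its label. PrE cells 4 and 6 of embryo 1 held 474 and 151 CPM, so the higher PrE sum of that embryo rests largely on cell 7. Without embryo 2 the log2 fold change of Xist was 0.10. Over 283 X-linked genes of at least 10 CPM, the median log2 ratio of EPI over PrE was -0.0019 in embryo 1 and 0.0099 in embryo 2, against -0.0064 and -0.013 over 8266 autosomal genes. Without cell 7 the medians of embryo 1 were -0.045 for X-linked and 0.030 for autosomal genes. The X-linked share of counts, Xist included, is another measure, taken as the median over cells as labelled. It was 3.19% in EPI and 3.47% in PrE of embryo 1, 4.04% and 3.45% in embryo 2, and 2.50% and 2.65% in embryo 3. By this share EPI stood higher in embryo 2 only, and the cause was not tested.

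**Figure D4:**
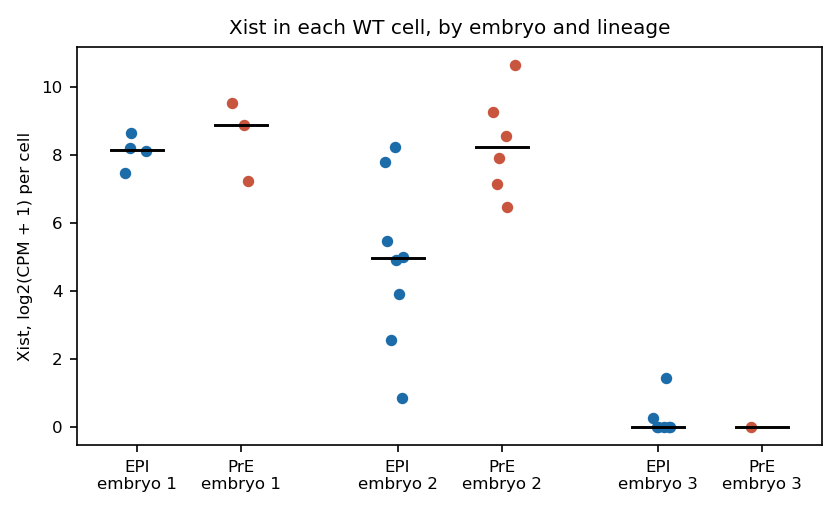
Xist in each wild-type cell as log2(CPM + 1), with EPI cells in blue left of PrE cells in red for each embryo and black bars at the medians. EPI cells of embryo 2 range from 0.814 to 302 CPM, whereas its PrE cells range from 88.5 to 1612, and embryo 3 is at or near 0.

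The MUT embryos share no cell or embryo with the wild type, so genes called there can be read in the wild type without having been chosen on its values. How cells of either genotype were assigned to a lineage is not known. If the assignment used expression, the direction of its marker genes was set by the labels in both genotypes. The same paired edgeR test on 4 MUT embryos called 23 genes higher in EPI (0.215% of 10698) and 51 higher in PrE (0.477%). In the wild type, 22 of the 23 tested EPI genes had a positive log2 fold change, against 59.9% of all genes. The median of the 23 was 5.43, and 17 had every EPI sum above every PrE sum, against 11.1% of all genes. All 49 of the PrE genes tested had a negative log2 fold change, against 40.1% of all genes. Their median was -4.93, and 37 had every EPI sum below every PrE sum, against 7.37%. Without cell 7 the counts without overlap were 18 and 33. The exception was Cldn4, a claudin of tight junctions, at 50.2, 123 and 119 CPM in EPI and 665, 16.6 and 107 in PrE. Its PrE sum of embryo 1 was 15.8 without cell 7, and its log2 fold change was then 1.58 (SE 0.65), in the direction of MUT, against -0.08 with the cell. Across the 10429 genes tested in both, which are not independent replicates, the log2 fold changes correlated with a Pearson r of 0.41 and a Spearman rho of 0.35.

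**Figure D5:**
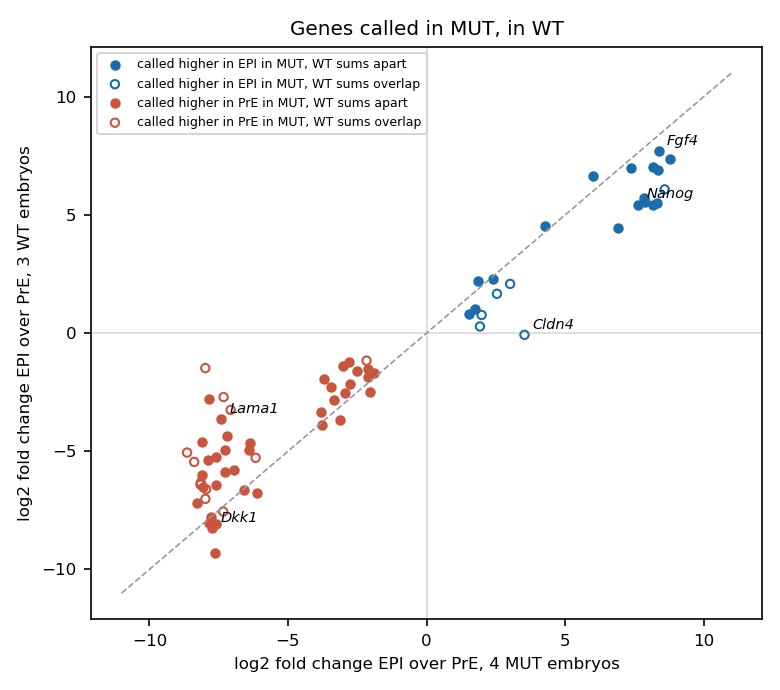
Log2 fold changes, EPI over PrE, of the genes called in 4 MUT embryos (horizontal axis) in 3 wild-type embryos (vertical axis); filled symbols are genes whose wild-type sums do not overlap, open symbols overlap, and the dashed line marks equal values. All but Cldn4 lie in the quadrant of their own direction; Cldn4 stands at -0.08 in the wild type with cell 7, as plotted, and at 1.58 (SE 0.65) without it.

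The difference of the lineage effect, wild type minus MUT, was tested as an interaction over 14220 genes. The edgeR test called 0 genes, 443 had an unadjusted p under 0.05, and the smallest adjusted p was 0.101, so no gene was shown by this test to differ from MUT in its lineage effect. DESeq2 and limma were not run on the difference. That smallest adjusted p was that of Lama1, with log2 fold changes of -3.64 (SE 0.32) in the wild type and -7.42 (SE 0.27) in MUT. EPI sums held 10.3, 84.02 and 19.2 CPM in the wild type, against 4.69, 6.37, 2.69 and 2.31 in MUT. Dppa2, Ddah1, Gdpd5 and Mum1 followed, each with an adjusted p of 1. All 4 MUT embryos held Y-linked reads, as did 1 of the 3 wild-type embryos, so genotype and sex cannot be fully told apart in this difference. The title letters, whose meaning is not stated, differed as well. Letter B marks MUT embryos 1 and 2, C marks wild-type embryos 1 and 2, and A marks the others. Genotype and letter cannot be fully told apart either.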

How the data were processed

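Single-cell RNA sequencing data of 29 wild-type E3.75 cells were analysed, with 23 MUT cells of the same stage for comparison. The authors deposited whole-number read counts per gene without normalization (49671 rows, 171 cells). STAR, HTSeq and mm10 are named per the submitters' processing notes; no source used here gives versions, strand setting, library method or molecular identifiers, so overlapping and near-identical genes may share reads. Precision is limited by the number of embryos, 3 in the wild type, and counting error is not given separately. GENCODE vM21 matched 49412 rows. The other 259 held 0.00796% of the counts of the wild-type E3.75 cells and stayed in the sums under their gene IDs.

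Counts were summed per embryo and lineage; cells are not replicates. No cell was removed or clustered, and doublets were not searched for. Genes were tested with edgeR 4.0.16 (R 4.3.3; TMM, filterByExpr with a minimum count of 10, quasi-likelihood test, embryo as block, robust), with Benjamini-Hochberg adjustment at 0.05 over all genes tested; a printed SE restates that test. The code was tested on simulated data. Ratios per embryo use a pseudocount of 1 CPM. Alternatives used DESeq2 1.42.0, limma 3.58.1, RLE scaling, no filter, no block, a shared spread and each embryo left out. Tables and exact permutation tests used Python 3.11.15 and scipy 1.17.1, and figures matplotlib 3.10.9. Pairs are EPI and PrE sums of an embryo, taken from the titles; the correlation of their deviations was 0.158, 0.133 and 0.0822 in embryos 1, 2 and 3.

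Members and the 26 gene lists were chosen with earlier results of these data known. Named genes were standing markers, the largest changes past the threshold (none passed), in each list the 2 genes with the smallest p, and the 5 smallest p values of the genotype difference. Further genes were chosen after their values were seen, to show their groups. One gene that separated all cells is not reported here.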

Additional observations from a re-analysis of the deposited data

Results flagged for a closer look

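Mum1 lay in opposite directions in the genotypes. The mean log2 ratio of EPI over PrE was 0.77 in wild-type embryos, higher in EPI in all 3, and -0.57 in MUT embryos, lower in EPI in all 4, a difference of 1.34 whose edgeR adjusted p was 1. In 3 genes 1 of the 4 MUT embryos stood apart from the other 3, which chance gives in about 1 of 20 groups. The log2 ratio of Gata4 was -5.20 in MUT embryo 1 and averaged -6.86 over all 4, that of Fgfr2 was -3.98 in embryo 5 and averaged -5.64, and that of Xist was -1.84 in embryo 4 and 0 in the other 3. Xist lay near the floor there. In MUT embryo 4, PrE cells 1 and 6 held 1.90 and 10.9 CPM of it, and the other cells held none.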

How the results depend on the processing

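No wild-type gene was called in either direction with RLE scaling, without the low-count filter, with limma-trend, without PrE cell 7 of embryo 1 or without any single embryo (0 to 0). DESeq2 called 629 genes higher in EPI and 452 in PrE, and 670 and 393 without cell 7. The fit with no replicate block called 1 and 3, 2 and 4 without the single-cell PrE sum, and 2 and 4 without cell 7. With the spread shared with MUT embryos 2 and 14 were called, and 1 and 10 without cell 7; settings with cell 7 left out or the spread shared were chosen after seeing the data. The cause of these differences was not tested. Genes whose sums did not overlap numbered 2444 to 3416 (EPI above) and 1852 to 2317 (PrE above) with an embryo left out, where fewer sums have to separate. Without the single-cell PrE sum, where fewer sums also have to separate, they numbered 1954 with EPI above and 1792 with PrE above. In MUT, 54 and 123 genes were called with no replicate block, and 0 to 5 and 4 to 24 with an embryo left out. The genotype difference called 0 genes in every setting run. Of 73 named genes, 1 reversed: Xist, whose log2 fold change was 0.10 without embryo 2 and -1.61 without embryo 3. In the fit with no replicate block Sox17, Fgf4, Mgst3 and Dkk1 passed, with adjusted p values of 0.0119, 0.0223, 0.0223 and 0.0337; without cell 7 that of Mgst3 was 0.235 and its call was lost.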

Other observations

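The 9 PrE cells other than cell 7 of embryo 1 all held the early factors, with 269 to 966 CPM of Sox17, 194 to 496 of Gata4 and 140.4 to 531 of Pdgfra, but differed in Tdgf1, the NODAL co-receptor of the EPI, and in the later markers Sox7 and Dab2. In embryo 1, cell 4 held 1556 CPM of Tdgf1, 13.8 of Sox7 and 0 of Dab2, and cell 6 held 1543, 18.02 and 17.5. In embryo 2, the same genes had 958, 24.04 and 14.6 CPM in cell 2, and 1023, 0.676 and 2.12 in cell 12. Those 4 cells were high in Tdgf1 and low in both later markers. Cell 1 of embryo 2 had 16.7 CPM of Tdgf1, 578 of Sox7 and 154 of Dab2, cell 10 had 23.5, 116 and 148, cell 11 had 36.7, 270.2 and 662, and cell 15 had 9.51, 544 and 878. The PrE cell of embryo 3 had 49.95, 757 and 259. In these 3 genes none of the 9 cells lay between, and both patterns occurred within embryo 2. Other genes did not all divide the cells in this way. Dnmt3b did, at 200 to 675 CPM in the Tdgf1-high cells and 942 to 2364 in the others. Dkk1 did not, at 185 CPM in Tdgf1-high cell 6 of embryo 1 and 0.690 in Tdgf1-low cell 11 of embryo 2. Nanog did not either, at 8.30 CPM in Tdgf1-high cell 12 and 34.3 in Tdgf1-low cell 11 of embryo 2. Within embryo 2, Lama1 was lower in the Tdgf1-high cells 2 and 12 than in the other 4 PrE cells, by a small margin. It had 157 and 193 CPM in cells 4 and 6 of embryo 1, and 629 and 585 in cells 2 and 12 of embryo 2. It had 747, 645, 764 and 745 CPM in cells 1, 10, 11 and 15 of embryo 2, and 340.5 in the cell of embryo 3. EPI cells held 428 to 2388 CPM of Tdgf1, 0 to 1.90 of Sox7 and 0 to 24.5 of Dab2. Cell 7 of embryo 1 had 54.3, 1.31 and 0.654 CPM of these genes. This pattern was noticed in the data and was not tested.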
